A study of Mus musculus with 27 samples.

Results

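The data described here are the transcriptional change of microglia 3 days after intracerebral hemorrhage (ICH), taken over 3 gut microbiota conditions. It was measured as the difference between 9 ICH day 3 libraries and 9 sham libraries with the microbiota condition as an additive term, so that 18 of the 27 libraries of the series enter. The ICH day 3 libraries came from WT mice given collagenase, which breaks down vessel walls and causes bleeding. They comprised 3 libraries each from SPF mice without further treatment, from ABX mice given an antibiotic cocktail and from germ-free (GF) mice. The sham libraries, again 3 per condition, came from WT mice of these 3 kinds given PBS in place of collagenase and were labelled day 7. The day 3 comparison therefore also differs in day, and injury and day cannot be told apart in it. Microglia had been sorted from tissue around the hematoma, and a low-input kit turned picogram amounts of RNA into cDNA for paired-end sequencing. The labels do not say whether a library holds 1 animal or several, so p-values measure the spread between these libraries, which may be technical in part.

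Microglia are the resident macrophages of the brain. After a hemorrhage they take up red blood cells, split heme with heme oxygenase into iron, biliverdin and carbon monoxide, and hold the iron in ferritin. On injury they lose part of the resting programme that includes the ADP receptor P2ry12, and gain a programme shared with neurodegeneration that includes osteopontin (Spp1), apolipoprotein E and lysosomal enzymes.

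Libraries held 50902521 to 79090595 counts after ICH and 41664864 to 70358974 counts in sham, with 14078 to 16931 and 10325 to 18408 genes detected. GF sham replicate 1 stood apart, with the fewest detected genes, 10325, and a TMM scaling factor of 0.532 where the other 17 libraries had 0.936 or more. DESeq2 size factors scaled it by 0.108 and the other 17 libraries by 1.05 or more. Several results are therefore given with and without it. Calls of single genes that ended with DESeq2 size factors are given from the fit that holds it. Of the 78 named genes called at day 3, 33 lost their call in that fit, and 1 when this library was left out as well. The 10 microglial marker genes were abundant in every library and summed to 23400, 35300 and 54100 CPM after ICH (counts scaled to a common library total; lowest, median and highest of 9 libraries, as throughout) and to 47300, 64500 and 96500 CPM in sham. Monocyte markers (11 genes) summed to 53.6, 126 and 323 CPM after ICH, against 6.96, 23.4 and 600 CPM in sham. Border-associated macrophage markers (9 genes) summed to 46.5, 131 and 215 CPM after ICH, against 1.40, 10.1 and 600 CPM in sham, where the highest value of both lists was that of GF sham replicate 1. Among them the monocyte marker Fn1 and the border macrophage markers Folr2, Cbr2 and Pf4 rose, by 8.98 ± 1.5, 5.26 ± 1.03, 4.53 ± 1.05 and 4.92 ± 1.19 (edgeR adjusted p between 0.00212 and 0.031). The border macrophage list had 1 rise with DESeq2 size factors, and 4 when GF sham replicate 1 was left out as well. It had 1 rise without GF ICH day 3 replicate 3 or SPF ICH day 3 replicate 2, and the monocyte list had 2 rises without ABX ICH day 3 replicate 1 or ABX sham replicate 3. Astrocyte markers summed to 84.1, 102 and 180 CPM after ICH, against 176, 330 and 780 CPM in sham. Of 7 such genes tested, only Slc1a3 was called and 3 had positive values, and the list's median log2 fold change was −3.02 in SPF, 0.73 in ABX and 1.01 in GF mice. Neutrophil markers summed to 75.3, 185 and 431 CPM after ICH, against 47.7, 200 and 872 CPM in sham, and overlapped. T and NK cell, B cell, oligodendrocyte, neuron, endothelial, erythroid and choroid plexus sums also overlapped and had 0 calls. Choroid plexus markers (5 genes) summed to 595, 1380 and 3550 CPM after ICH, against 694, 2970 and 26100 CPM in sham. All 5 had negative values, with a median log2 fold change of −1.99, and 0 to 1 fell when single libraries were left out. In the neutrophil, border macrophage, dendritic cell, neuron and endothelial lists 1 gene each was at 0 in all 9 sham libraries, but none in all ICH libraries. The part of these cells in the results was not tested, and in bulk libraries fewer cells of a type and less RNA per cell cannot be told apart.

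**Figure D1:**
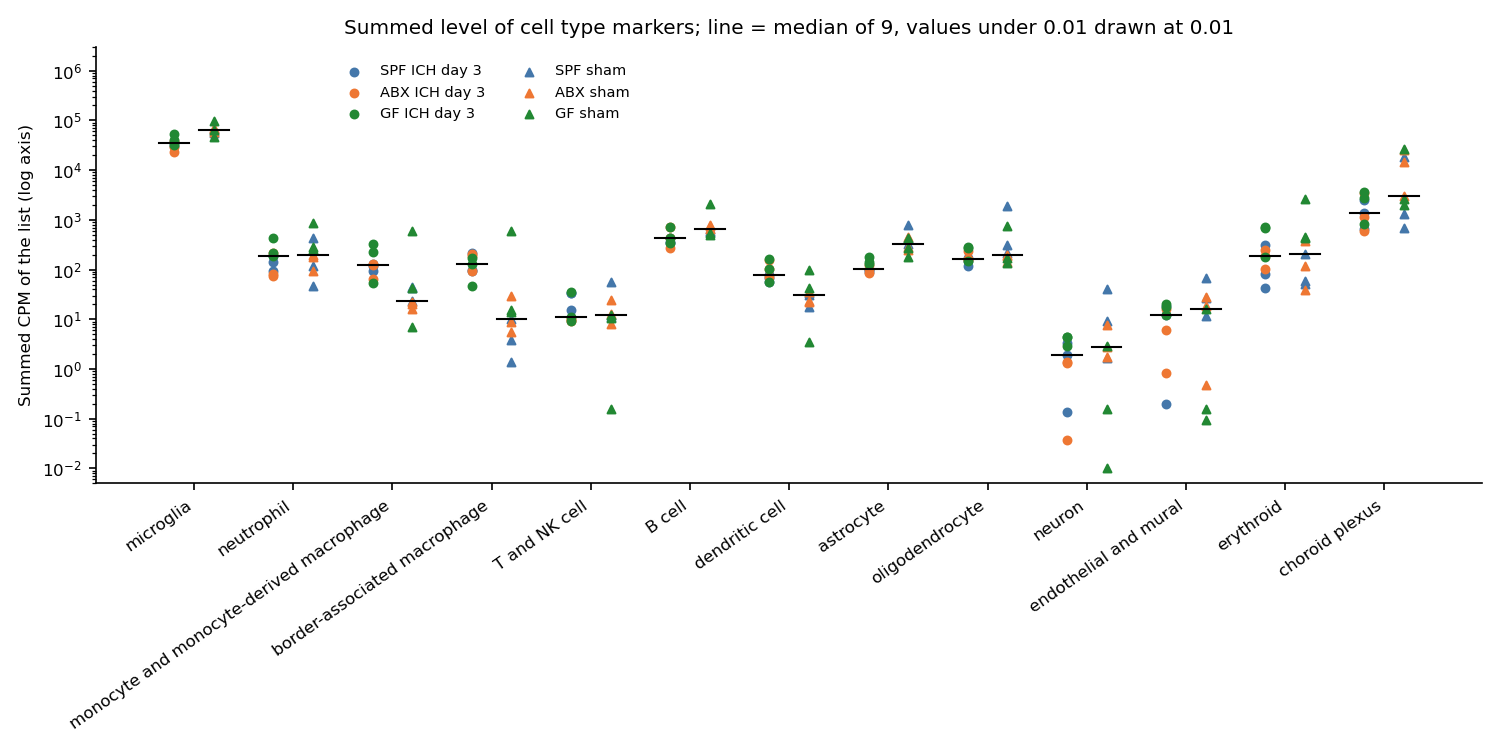
Summed level of 13 cell type marker lists in each library (CPM on a log axis), with ICH day 3 as circles left of sham as triangles, coloured by microbiota condition, and lines at the median of 9 libraries. Monocyte and border-associated macrophage sums have higher medians after ICH (126 and 131 CPM) than in sham (23.4 and 10.1 CPM), astrocyte sums, made up largely of Slc1a3, a lower one (102 against 330 CPM), and GF sham replicate 1 is the highest library of 6 lists.

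The day 3 response contained 261 genes that rose and 127 that fell among 16816 tested, which is 1.55% and 0.755% of them (edgeR adjusted p under 0.05, quasi-likelihood F test). Rises were far larger than falls: the median log2 fold change was 4.29 among the risen genes and −1.3 among the fallen ones, and 190 rises but only 25 falls passed 4-fold. All 9 ICH libraries lay above all 9 sham libraries for 202 genes, 1.20% of those tested, and below them for 41 genes, 0.244%. Of these, 132 and 32 were also called. The direction held within SPF, ABX and GF mice taken singly for 260 of the 261 risen and 127 of the 127 fallen genes. These genes were called from the same libraries, so this agreement is in part built in and is no separate test of a common response. In 173 risen and 51 fallen genes the 3 ICH libraries of each condition also lay wholly above or wholly below its 3 shams. The 132 and 32 genes without any overlap are among these by definition. The share over all tested genes was not counted for this measure, so nothing is drawn from it. Of the called genes 225 risen and 118 fallen ones are annotated as protein coding, and some of the others are processed pseudogenes, among them copies of the ferritin light chain.

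The number of calls depended on single libraries and on the scaling more than the directions did. Without GF sham replicate 1, 478 genes rose and 277 fell, and 384 of the 388 calls remained. Falls numbered 84 without SPF ICH day 3 replicate 1 and 80 without SPF ICH day 3 replicate 3. With DESeq2, 608 genes rose and 540 fell, and 278 of the 388 calls remained, with a missing adjusted p counted as not kept. With DESeq2 size factors in the edgeR fit, 139 rose, 45 fell and 178 of the 388 calls remained. The median over all tested genes was then −0.22, against −0.02 with TMM. When GF sham replicate 1 was left out as well, an alternative chosen after seeing the data, 452 rose, 323 fell and 384 of the 388 calls remained. Leaving out the mice of 1 condition kept 51 of the 388 calls without SPF, 39 without ABX and 311 without GF mice, and none changed sign in any of these fits.

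**Figure D2:**
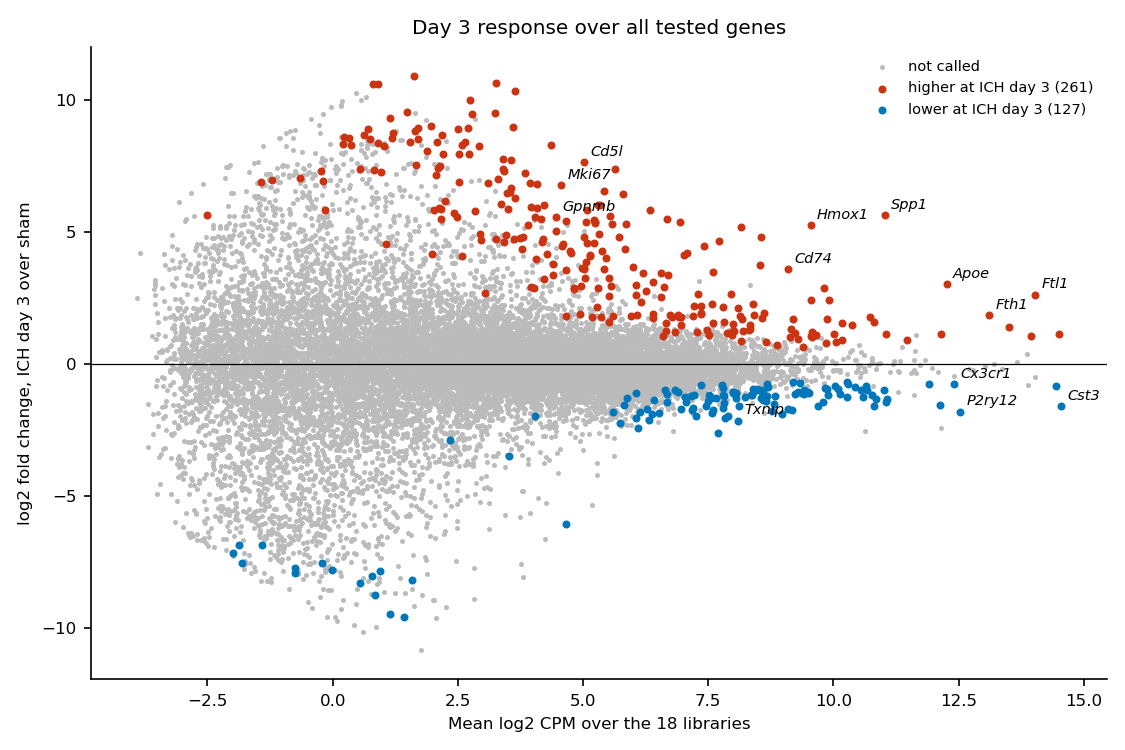
Log2 fold change of ICH day 3 over sham against mean log2 CPM for the 16816 tested genes, with the 261 risen genes in red, the 127 fallen genes in blue and the rest in grey. Rises reach over the whole range of abundance and include Hmox1, Spp1 and Ftl1, while most falls are small and among abundant genes, with a smaller group of large falls among genes of low abundance.

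The 12 largest rises and 12 largest falls among abundant called genes with no overlap between the sides (mean log2 CPM of at least 4) covered several functions. The rises were Plk1, Mki67, Ccnb1, Ccnb2 and Cdca8 of the cell cycle, the scavenger genes Cd5l and Msr1, Spp1, the membrane restriction factor Ifitm1, the small GTPase Rab7b, the hexose transporter Slc2a6 and the elastase Cela1. Their log2 fold changes lay between 5.64 (Spp1) and 8.29 (Plk1). Cd5l, which encodes a secreted macrophage protein, had 12.1, 48.4 and 120.2 CPM after ICH, against 0, 0.257 and 1.06 CPM in sham (7.64 ± 1.00, edgeR adjusted p = 0.000237). Plk1, the polo-like kinase of mitosis, had 9.71, 30.7 and 91.2 CPM after ICH, against 0, 0 and 5.97 CPM in sham (8.29 ± 1.86, edgeR adjusted p = 0.0195). Its call ended without ABX sham replicate 2 (edgeR adjusted p = 0.0568). Ccnb1, a mitotic cyclin, was not called when any of 5 single libraries was left out, with edgeR adjusted p = 0.0513 without ABX ICH day 3 replicate 1, 0.0525 without ABX ICH day 3 replicate 2, 0.0673 without ABX sham replicate 3, 0.0718 without SPF sham replicate 1 and 0.0759 without SPF sham replicate 2. The other 10 of these rises were called whichever single library was left out. The calls of Plk1, Ccnb1, Ccnb2 and Slc2a6 ended both without SPF and without ABX mice. Those of Cdca8 and Cela1 ended without SPF mice, and that of Cd5l without ABX mice.

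The 12 largest falls were Agmo, Txnip, Slc1a3, P2ry12, the replication origin subunit Orc5, the lectin Clec4a2, the TFIID subunit Taf7, the kinase Sgk3, the sialomucin Cd164, the sialyltransferase St3gal6, the sarcoglycan Sgce and the tetraspanin Tspan13, with log2 fold changes between −2.44 (Agmo) and −1.60 (Tspan13). Agmo, which cleaves ether lipids, had 15.7, 20.04 and 23.7 CPM after ICH, against 42.2, 83.1 and 354 CPM in sham (−2.44 ± 0.37, edgeR adjusted p = 0.000684). Txnip, an inhibitor of thioredoxin and of glucose uptake, had 59.7, 97.01 and 132 CPM after ICH, against 177, 383 and 846 CPM in sham (−2.15 ± 0.29, edgeR adjusted p = 0.000267). The highest ICH library of both genes lay below the lowest sham library. Slc1a3, a glutamate transporter best known from astrocytes, had 45.3, 76.8 and 145 CPM after ICH, against 174, 263 and 441 CPM in sham (−1.88 ± 0.26, edgeR adjusted p = 0.000381). It was the only one called of the 7 tested astrocyte markers. All 12 calls held whichever single library was left out. With DESeq2 size factors those of Orc5, Cd164, Sgce and Sgk3 ended (edgeR adjusted p = 0.104, 0.0642, 0.116 and 0.109), and that of Clec4a2 ended without GF mice. With all 27 libraries those of Orc5, Txnip, Clec4a2, Taf7, St3gal6, Sgce and Tspan13 ended (0.0513 to 0.213). Offsets for GC content ended those of Sgce and Sgk3 (0.0533 and 0.0558). Those of Agmo, Orc5, Clec4a2, Taf7, Slc1a3, Sgk3, Cd164 and Sgce ended both without SPF and without ABX mice. That of Tspan13 ended without ABX mice.

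**Figure D3:**
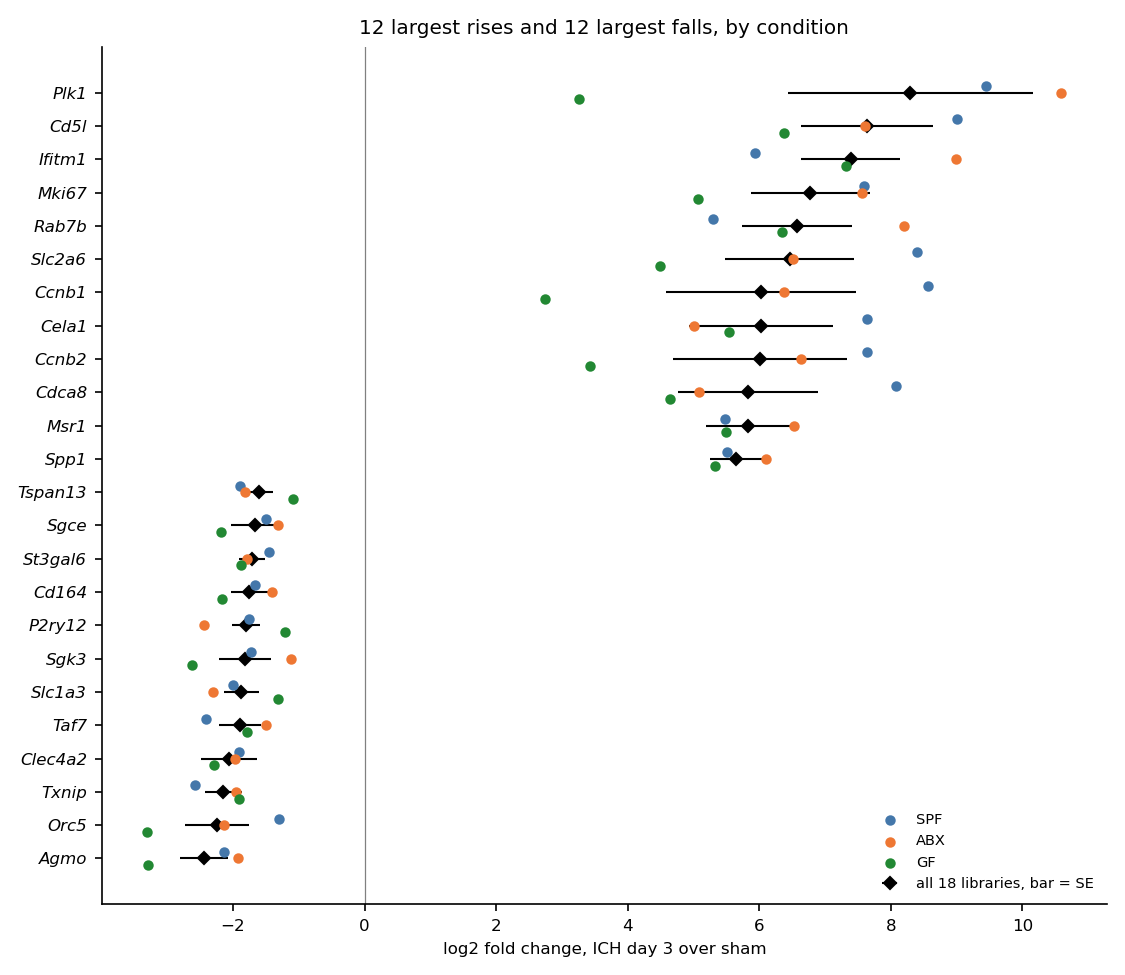
Log2 fold change of ICH day 3 over sham for the 12 largest rises and 12 largest falls, from all 18 libraries (black diamonds, bars show the SE) and within SPF, ABX and GF mice (coloured points). All 72 within-condition values have the sign of the pooled one, which follows from picking genes whose sides do not overlap. The spread between conditions is widest among cell cycle genes such as Plk1.

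Promoter sequence was read for 4 risen genes that stand for 3 of the groups below: 2 class II chains, Spp1 and the proliferation marker Mki67. Each is the RefSeq stretch of 150 bases just before the annotated start (GRCm38.p6), 5′ to 3′ on the gene's strand. Capitals mark an inverted CCAAT box (CTGATTGG), known as the Y box in class II promoters, or, in Mki67, the cell cycle homology region (TTTGAA). Both strands were searched, and the 2 motifs do not overlap each other.
H2-Aa, chr17:34287824-34287973, minus strand: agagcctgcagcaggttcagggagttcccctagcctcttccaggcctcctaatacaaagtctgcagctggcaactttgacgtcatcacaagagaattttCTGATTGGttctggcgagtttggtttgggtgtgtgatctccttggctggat
H2-Eb1, chr17:34305717-34305866, plus strand: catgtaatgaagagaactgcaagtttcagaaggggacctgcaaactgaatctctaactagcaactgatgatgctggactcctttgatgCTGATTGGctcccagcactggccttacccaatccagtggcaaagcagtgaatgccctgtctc
Spp1, chr5:104434961-104435110, plus strand: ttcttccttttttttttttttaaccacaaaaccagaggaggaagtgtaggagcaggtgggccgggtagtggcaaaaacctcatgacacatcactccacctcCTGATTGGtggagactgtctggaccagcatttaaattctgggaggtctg
Mki67, chr7:135716380-135716529, minus strand: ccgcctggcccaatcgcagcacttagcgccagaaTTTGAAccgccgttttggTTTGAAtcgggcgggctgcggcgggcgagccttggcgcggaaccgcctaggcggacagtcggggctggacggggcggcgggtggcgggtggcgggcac
The CCAAT match began 51 bases before the start in H2-Aa, 62 in H2-Eb1 and 49 in Spp1, whose other window in the table was not used. Mki67 had 2 matches of its motif, beginning 116 and 98 bases before the start. Over all 32851 windows of the table, 3.16% held CTGATTGG and 9.07% held TTTGAA in this stretch. Only windows that hold the motif were taken for the 4 genes, so a match in each was fixed by this choice. The matches can therefore not be set against these shares, and they describe the letters only.

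Heme breakdown and iron storage included the rise with the lowest p-value of the whole response. Hmox1 (ENSMUSG00000005413, chromosome 8, 75093621 to 75100589, GRCm38), the inducible heme oxygenase, had 930.3, 1405 and 2199 CPM after ICH, against 8.94, 35.8 and 72.1 CPM in sham (5.27 ± 0.34, edgeR adjusted p = 6.06e-08). The lowest ICH library exceeded the highest sham by more than 10-fold. Ftl1, the ferritin light chain, had 22970, 29970 and 31480 CPM after ICH, against 2578, 3590 and 9729 CPM in sham (2.63 ± 0.20, edgeR adjusted p = 4.45e-07), and the sides did not overlap. Fth1, the ferritin heavy chain, had 9175, 13140 and 18370 CPM after ICH, against 2630, 3191 and 9414 CPM in sham (1.85 ± 0.20, edgeR adjusted p = 2.11e-05), with an overlap of the lowest ICH and the highest sham library. The 3 sham libraries of GF mice held 3380, 8830 and 9730 CPM of Ftl1, against 2580, 3330 and 3590 CPM in SPF and 3280, 4070 and 5430 CPM in ABX shams. The call of Fth1 ended with DESeq2 (adjusted p = 0.0912) and with DESeq2 size factors (edgeR adjusted p = 0.288). Reads of Ftl1 may be shared with its copies Ftl1-ps1 and Ftl2-ps, which were counted apart and also rose, by 2.88 ± 0.21 and 2.43 ± 0.19, so the level of Ftl1 itself is uncertain.

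The rest of the heme and iron list did not follow. Of its 20 members 3 rose and 0 fell, and its median log2 fold change was 0.11, against −0.02 over all tested genes. The biliverdin reductase Blvrb stood at 1.17 ± 0.48 (edgeR adjusted p = 0.265), the iron exporter Slc40a1 at −0.40 ± 0.34 (0.735) and the endosomal iron transporter Slc11a1 at 0.28 ± 0.42 (0.895). Cd163, the receptor for haptoglobin-bound hemoglobin, was at 0 in the median library of both sides. With DESeq2 size factors the median of the list was −0.40, and with GF sham replicate 1 left out as well it was 0.59. Of 20 Nrf2 antioxidant genes, whose factor also drives Hmox1, Gpx1 and Prdx1 rose, by 1.04 ± 0.20 and 1.32 ± 0.30 (edgeR adjusted p = 0.00669 and 0.0196), and the list had a median of 0.59. Gclm, a subunit of the glutathione-forming ligase, had all 9 ICH libraries above all shams, with 37.4, 61.5 and 91.2 CPM after ICH, against 0.314, 15.3 and 29.7 CPM in sham, yet did not pass (2.03 ± 0.55, edgeR adjusted p = 0.0623). It passed with DESeq2 (adjusted p = 0.000219), with DESeq2 size factors (edgeR adjusted p = 0.0402) and without GF sham replicate 1 (0.00332). The call of Prdx1, a peroxiredoxin, ended without ABX sham replicate 2 (edgeR adjusted p = 0.051) or GF ICH day 3 replicate 2 (0.0555), and those of Gpx1 and Prdx1 with DESeq2 size factors (0.409 and 0.663). Leaving out GF sham replicate 1 gave 4 rises in this list.

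**Figure D4:**
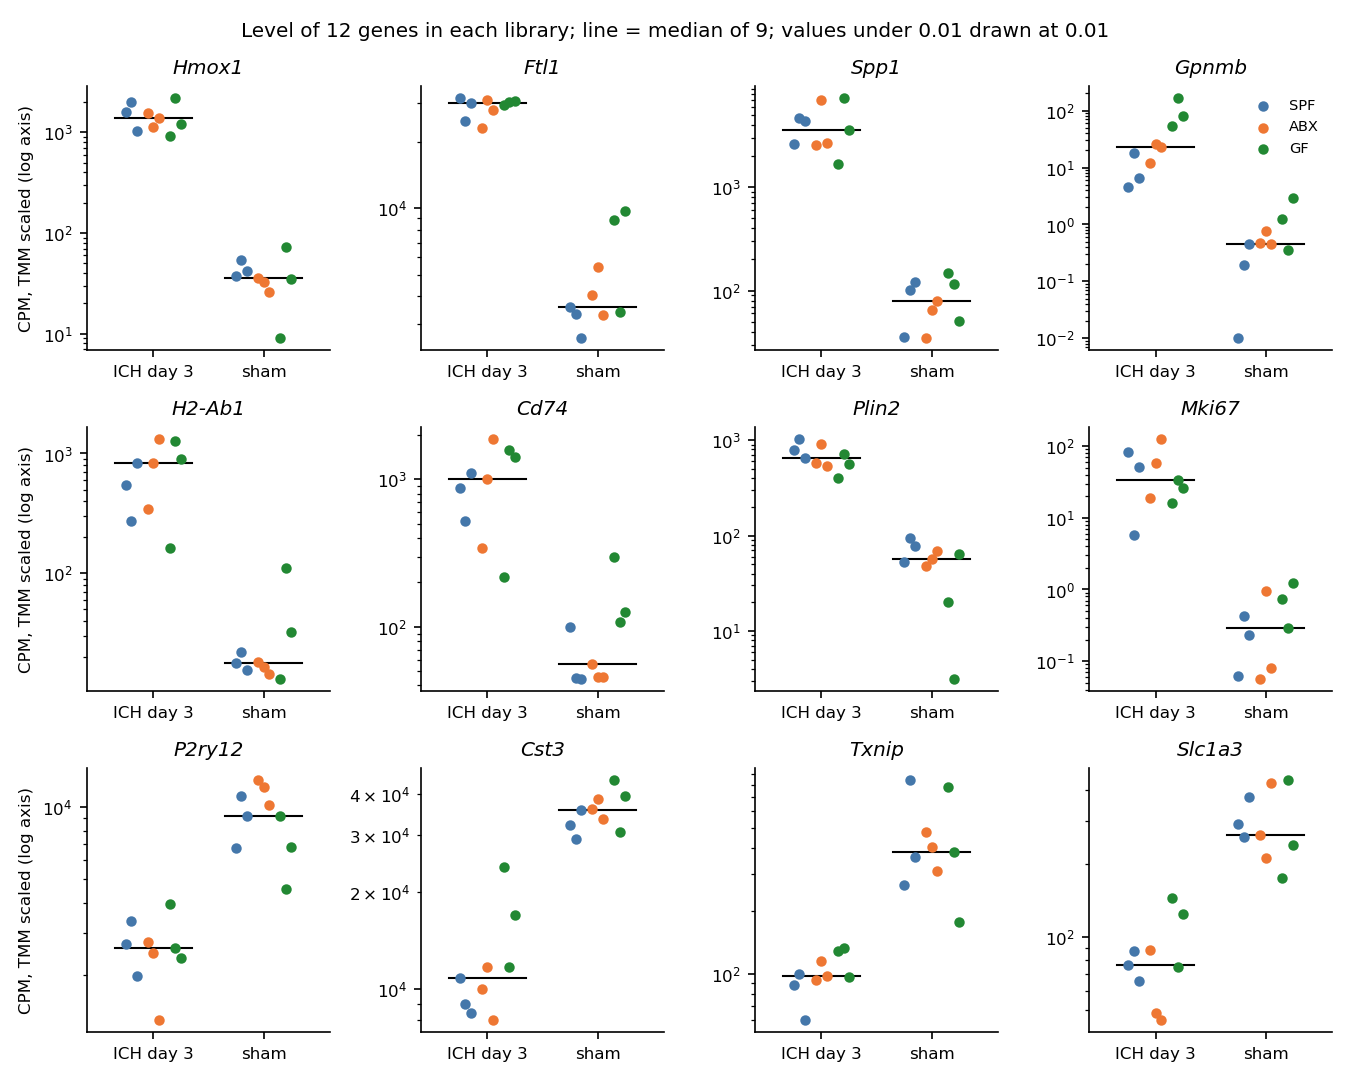
Level of 12 genes in each of the 18 libraries (CPM on a log axis), with ICH day 3 left of sham, points coloured by microbiota condition and a line at the median of 9 libraries. In 11 of the 12 panels the ICH libraries lie wholly above the shams (Hmox1, Ftl1, Spp1, Gpnmb, H2-Ab1, Plin2, Mki67) or wholly below them (P2ry12, Cst3, Txnip, Slc1a3), and in Cd74 they overlap.

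Genes of disease-associated microglia formed the list with the most calls. Of 21 members 13 rose and 1 fell, with a median log2 fold change of 2.78, and with DESeq2 size factors 8 rose and 0 fell. When GF sham replicate 1 was left out as well, 14 rose and 1 fell. Spp1 (ENSMUSG00000029304, chromosome 5, 104435118 to 104441050), which encodes the secreted matrix protein osteopontin, had 1694, 3576 and 7334 CPM after ICH, against 34.4, 79.3 and 148 CPM in sham (5.64 ± 0.39, edgeR adjusted p = 1.28e-07). The lowest ICH library held more than 10 times the highest sham level, and the change was 5.51 in SPF, 6.10 in ABX and 5.33 in GF mice. Lilrb4a, an inhibitory immunoglobulin-like receptor, had 187, 524 and 946 CPM after ICH, against 3.52, 11.1 and 53.8 CPM in sham (5.18 ± 0.53, edgeR adjusted p = 1.71e-05), again without overlap. It is nearly identical to Lilr4b, which rose by 5.36 ± 0.76, and reads may be split between them. Gpnmb, a transmembrane glycoprotein of phagocytes, had 4.63, 22.7 and 166 CPM after ICH, against 0, 0.454 and 2.89 CPM in sham (5.57 ± 0.75, edgeR adjusted p = 0.000289), and Igf1, the insulin-like growth factor, had 22.2, 65.96 and 116 CPM after ICH, against 0.5695, 4.02 and 6.75 CPM in sham (4.12 ± 0.52, edgeR adjusted p = 0.000156). The other rises were Fabp5, Ctsb, Cd68, Lgals3, Cd63, Apoe, Cst7, Clec7a and Ctsd, from 1.12 (Cd68) to 4.95 (Fabp5). The 1 member that fell was the chemokine gene Ccl6 (−0.99 ± 0.23, edgeR adjusted p = 0.0224), a call that ended when any of 7 single libraries was left out, with edgeR adjusted p up to 0.0593 without SPF sham replicate 3. Among the calls that ended, those of Apoe, Ctsb, Cd68 and Ccl6 did so with DESeq2 size factors (edgeR adjusted p = 0.175, 0.508, 0.238 and 0.136).

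Apoe, the main lipid carrier of the brain, was the abundant member whose response differed most between conditions. It had 4727, 8017 and 10870 CPM after ICH, against 236, 511 and 7877 CPM in sham (3.04 ± 0.49, edgeR adjusted p = 0.00143). The changes were 3.93 in SPF, 4.10 in ABX and 0.80 in GF mice. In the GF shams the gene was already at 3170, 3220 and 7880 CPM, against 236, 455 and 753 CPM in SPF shams and 394, 510.0 and 511 CPM in ABX shams, whereas the ICH libraries overlapped between the 3 conditions. The test of a differing response had an unadjusted p of 5.8e-05 but an edgeR adjusted p of 0.325 over all genes, and did not pass. Without the condition term Apoe was not called.

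Lipid handling genes followed. Of 19 tested, 8 rose and 0 fell, all 19 had positive values and the median was 2.33. With DESeq2 size factors 5 rose, and 9 when GF sham replicate 1 was left out as well. Plin2, which coats lipid droplets, had 399, 656 and 1031 CPM after ICH, against 3.097, 56.5 and 95.1 CPM in sham (3.75 ± 0.40, edgeR adjusted p = 2.20e-05). Msr1, the class A scavenger receptor for modified lipoproteins, had 50.2, 186 and 211 CPM after ICH, against 0.236, 1.302 and 9.72 CPM in sham (5.83 ± 0.63, edgeR adjusted p = 2.43e-05). Neither overlapped between the sides. Ch25h, which makes 25-hydroxycholesterol, rose by 5.61 ± 0.78, the fatty acid chaperone Fabp5 by 4.95 ± 0.59, the scavenger receptor gene Cd36 by 5.86 ± 1.26, the apolipoprotein gene Apoc2 by 6.51 ± 1.45 and the cholesterol-esterifying enzyme Soat1 by 1.07 ± 0.26, beside Apoe (edgeR adjusted p between 8.09e-05 and 0.0285). Fabp5 and Apoe also belong to the disease-associated list.

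Lysosomal genes rose in part. Of 23 tested, 5 rose, the cathepsin genes Ctsb, Ctsz, Ctsl and Ctsd and the lysosomal glycoprotein gene Cd68. Ctsb had 9738, 17260 and 20030 CPM after ICH, against 4509, 5661 and 12470 CPM in sham (1.42 ± 0.17, edgeR adjusted p = 0.000109), with overlapping sides. Cd68, a marker of phagocytic activity, had 2304, 2787 and 3364 CPM after ICH, against 726, 1275 and 1951 CPM in sham (1.12 ± 0.15, edgeR adjusted p = 0.000309), without overlap. The list had 0 rises with DESeq2 size factors. Its median was 0.49, which was −0.09 with these size factors and 0.69 with GF sham replicate 1 left out as well, and 10 members rose without that replicate. Calls of Ctsz ended with DESeq2 (adjusted p = 0.485) and with the size factors (edgeR adjusted p = 0.635). Of 18 phagocytic and Fc receptor genes Msr1 and Cd36 rose and the low-affinity receptor gene Fcgr3 fell by 0.76 ± 0.14 log2 units (edgeR adjusted p = 0.00602), a call lost with the size factors (0.135), and 4 members rose without GF sham replicate 1.

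Galectins, annexins and S100 proteins had 5 of 17 rising and 0 falling, with a median of 1.28. Anxa2, a membrane-binding annexin, had 122, 187 and 395 CPM after ICH, against 1.06, 3.14 and 10.4 CPM in sham (5.48 ± 0.51, edgeR adjusted p = 4.25e-06), and Lgals3, the galectin that marks damaged endosomes, had 156, 349 and 909.9 CPM after ICH, against 2.43, 8.92 and 44.4 CPM in sham (4.65 ± 0.63, edgeR adjusted p = 0.000309). Both were separate in all 18 libraries. Lgals1, Lgals3bp and S100a4 also rose, by 2.54 ± 0.58, 1.74 ± 0.43 and 4.89 ± 0.86. Leaving out GF sham replicate 1 gave 9 rises. Matrix and growth factor genes had 4 of 21 rising, Igf1, Gpnmb, the metalloprotease gene Adam8 (5.93 ± 0.97, edgeR adjusted p = 0.00165) and fibronectin, Fn1 (8.98 ± 1.5, edgeR adjusted p = 0.00212), which also counts as a monocyte marker and was at 0 in the median sham.

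**Figure D5:**
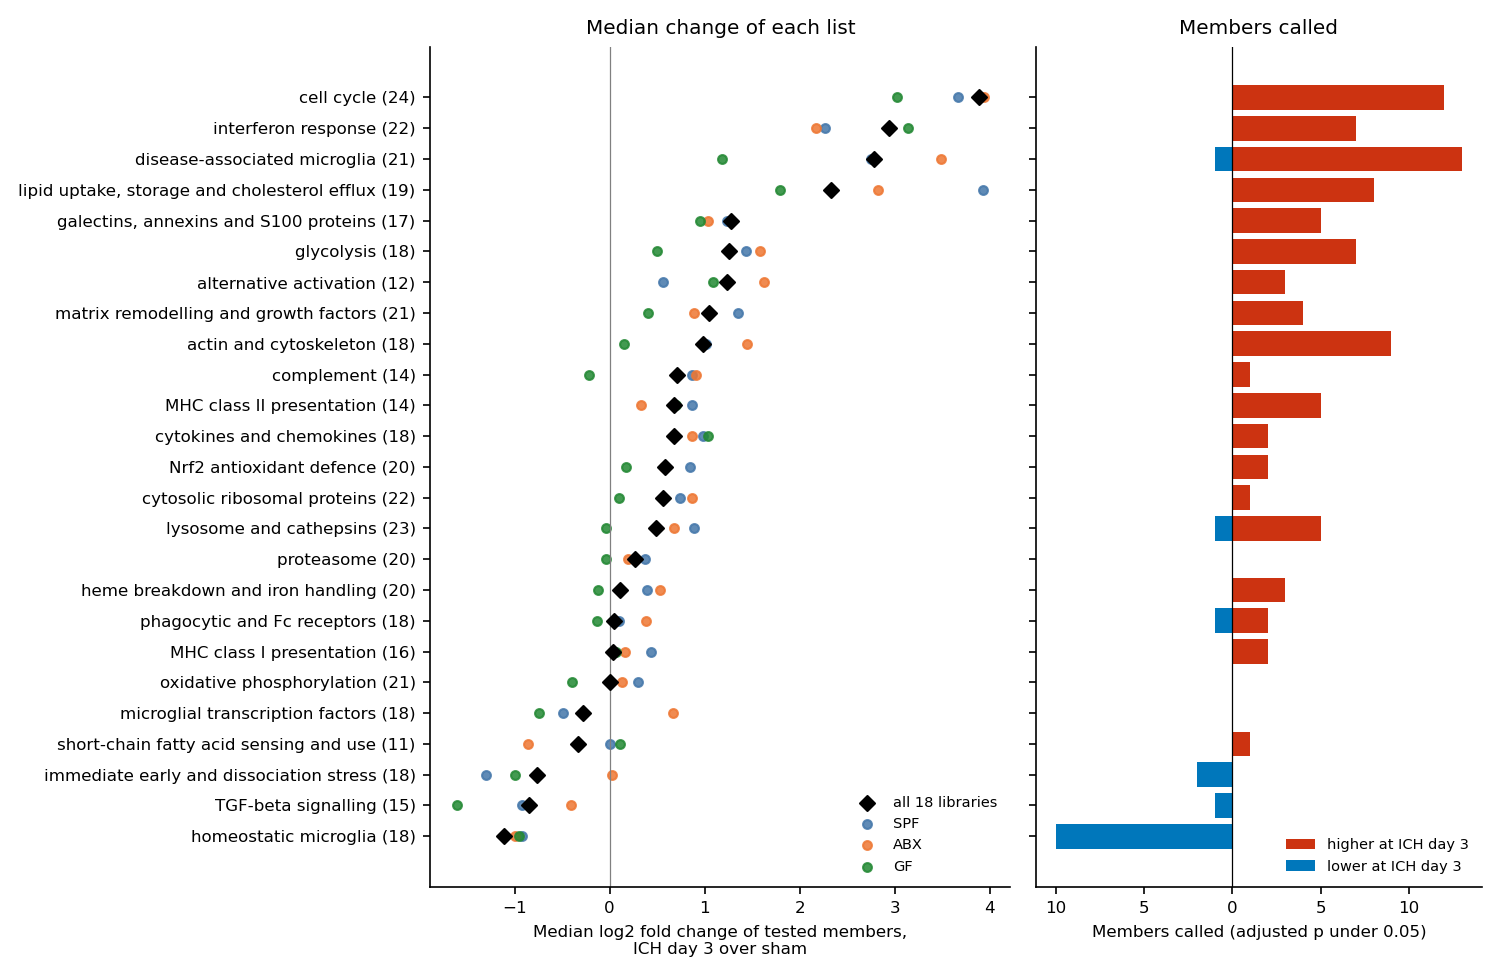
For 25 functional gene lists with the number of tested members in brackets, the left panel shows the median log2 fold change of ICH day 3 over sham in all 18 libraries and within SPF, ABX and GF mice, and the right panel the number of members called. Cell cycle, interferon and disease-associated lists have the highest medians (3.89, 2.94 and 2.78), disease-associated genes the most rises (13) and homeostatic genes the most falls (10).

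Antigen presentation by MHC class II changed in its chains and not across its list. Of 14 tested genes 5 rose and 0 fell, but only 7 had positive values and the median was 0.68. With DESeq2 size factors 3 rose, and 5 when GF sham replicate 1 was left out as well. H2-Ab1, a beta chain, had 164, 834 and 1316 CPM after ICH, against 12.98, 17.9 and 111 CPM in sham (4.82 ± 0.51, edgeR adjusted p = 1.95e-05). H2-Eb1, another beta chain, had 36.7, 241 and 532 CPM after ICH, against 1.896, 3.37 and 11.8 CPM in sham (5.40 ± 0.58, edgeR adjusted p = 2.15e-05). H2-Aa, an alpha chain, had 51.7, 302 and 661 CPM after ICH, against 2.98, 9.26 and 51.2 CPM in sham (4.49 ± 0.61, edgeR adjusted p = 0.000309). The chains did not overlap between the sides, although one GF sham came within a factor of 2 of the lowest ICH library in H2-Ab1. Cd74, the invariant chain that guides class II molecules, had 217, 999.8 and 1883 CPM after ICH, against 43.96, 56.2 and 299 CPM in sham (3.59 ± 0.45, edgeR adjusted p = 0.000149), with an overlap through GF libraries, and its call ended with DESeq2 size factors (edgeR adjusted p = 0.0586). Ifi30, a lysosomal thiol reductase of the pathway, rose by 1.94 ± 0.27. H2 genes resemble each other, so that the split of reads among them is uncertain. Dendritic cell markers (7 genes), whose cells carry much class II, summed to 55.8, 76.2 and 161 CPM after ICH, against 3.53, 31.3 and 97.6 CPM in sham, and among them Ccr7 rose by 4.64 ± 0.67. Monocyte and border-associated macrophage sums were higher too, as given above.

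Class I presentation held 2 calls, with a list median of 0.04. Of 16 genes tested, H2-K1 rose by 1.01 ± 0.19 and the chaperone gene Calr by 0.66 ± 0.15 (edgeR adjusted p = 0.00438 and 0.0208), and B2m, the light chain, stood at −0.23 ± 0.16 (0.65). Without GF sham replicate 1 the list had 4 rises. Both calls ended with DESeq2 size factors, and that of Calr also without any one of the 3 ABX shams or SPF ICH day 3 replicate 3, with edgeR adjusted p from 0.0565 to 0.0738.

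Interferon-inducible genes had 7 of 22 rising and 0 falling, with all 22 values positive and a median of 2.94, and 10 rose without GF sham replicate 1. Ifitm3, which blocks virus entry at membranes, had 133, 324 and 623 CPM after ICH, against 2.62, 32.7 and 61.9 CPM in sham (3.50 ± 0.50, edgeR adjusted p = 0.000423). Its neighbour Ifitm1 had 21.9, 38.1 and 225 CPM after ICH, against 0.111, 0.425 and 1.33 CPM in sham (7.39 ± 0.76, edgeR adjusted p = 1.71e-05). In both the sides were apart, and the genes are similar enough for reads to be shared with Ifitm2, which rose by 4.20 ± 0.54. Ifi204, Ifi27l2a, Ifit1, Ifit2, Oas1a and the chemokine gene Cxcl10 also rose, by 2.92 ± 0.66 (Ifit2) to 4.18 ± 0.81 (Ifit1).

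Cytokine and chemokine genes had a median log2 fold change of 0.68, against −0.02 over all tested genes, with 14 positive and 4 negative values. Over all tested genes 1.55% rose. Of 18 tested, 2 rose, both monocyte-attracting chemokines: Ccl2 had 71.2, 113 and 200.2 CPM after ICH, against 1.52, 11.5 and 47.1 CPM in sham (3.44 ± 0.48, edgeR adjusted p = 0.00035), and Ccl12 had 153, 301 and 556 CPM after ICH, against 28.1, 57.3 and 129 CPM in sham (2.29 ± 0.33, edgeR adjusted p = 0.000423). Their ICH and sham libraries did not overlap, and the call of Ccl12 ended with DESeq2 size factors (edgeR adjusted p = 0.219). Il1b, interleukin-1 beta, had 3.92, 14.7 and 59.7 CPM after ICH, against 0, 0.364 and 3.98 CPM in sham and missed the threshold (4.55 ± 1.21, edgeR adjusted p = 0.0553), which it passed with DESeq2 (adjusted p = 7.68e-05) and limma voom (0.00842). Tnf had 8.36, 18.6 and 40.4 CPM after ICH, against 0, 6.03 and 323 CPM in sham (0.17 ± 1.28, edgeR adjusted p = 0.988). Its highest value was that of GF sham replicate 1, without which the change was 1.67 (edgeR adjusted p = 0.341). In complement 1 of 14 genes rose, factor B, Cfb (8.43 ± 2.14, edgeR adjusted p = 0.0423), but this call ended in 14 of the 18 fits that left out 1 library, with edgeR adjusted p up to 0.198 without ABX ICH day 3 replicate 1, and 3 complement genes rose without GF sham replicate 1.

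Among genes of alternative activation 3 of 12 rose, the scavenger gene Msr1, Arg1, the arginase of wound-type macrophages, and the chemokine gene Ccl22. Arg1 had 3.49, 32.2 and 83.6 CPM after ICH, against 0, 0 and 4.54 CPM in sham (6.84 ± 1.61, edgeR adjusted p = 0.0267). It was at 0 in the 3 SPF shams and in 5 of 9 shams in all. Its call ended without GF ICH day 3 replicate 2 (edgeR adjusted p = 0.0652) or any SPF sham (0.0527 to 0.0547), and that of Ccl22 without any SPF or ABX sham or SPF ICH day 3 replicate 1 (0.0559 to 0.0764). Both also ended without GF mice and with DESeq2 size factors.

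Receptors for short-chain fatty acids sense products of gut bacteria. Ffar2, Ffar3 and the carrier gene Slc5a8 were too low to be tested. Hcar2, the receptor for beta-hydroxybutyrate and butyrate, had 31.2, 123 and 164 CPM after ICH, against 0.381, 6.56 and 11.97 CPM in sham (4.34 ± 0.75, edgeR adjusted p = 0.00266), with no overlap. The change was 4.80 in SPF, 3.40 in ABX and 4.81 in GF mice, and the interaction with condition did not pass (edgeR adjusted p = 1). It was the 1 call among the 11 tested genes of this list, whose median was −0.33.

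Cell cycle genes had the highest median of the 25 functional lists, 3.89, and 12 of 24 rose, with all 24 values positive. Mki67 (ENSMUSG00000031004, chromosome 7, 135689784 to 135716361), the proliferation marker whose promoter is shown above, had 5.81, 33.7 and 126 CPM after ICH, against 0.0556, 0.286 and 1.22 CPM in sham (6.78 ± 0.90, edgeR adjusted p = 0.000267). Rrm2, the ribonucleotide reductase subunit that supplies DNA precursors, had 39.3, 62.1 and 124 CPM after ICH, against 0.167, 0.4297 and 9.57 CPM in sham (5.45 ± 0.91, edgeR adjusted p = 0.00212). Stmn1, which destabilises microtubules, had 293, 524 and 864 CPM after ICH, against 51.3, 83.1 and 243 CPM in sham (2.27 ± 0.38, edgeR adjusted p = 0.00198). All 3 genes were apart between the sides. The remaining rises were Birc5, Cdk1, Ube2c, H2afz, Ccnb1, Ccnb2, Ccna2, Aurkb and Top2a, from 1.20 (H2afz) to 6.02 (Ccnb1). The DNA replication genes Mcm2 and Mcm5 had no overlap but missed the threshold, at 5.31 ± 1.40 and 5.04 ± 1.51 (edgeR adjusted p = 0.0531 and 0.098). The number of rises ran from 8 to 18 when single libraries were left out. Stmn1 changed by 2.73 in SPF, 3.32 in ABX and 0.65 in GF mice, and this interaction did not pass (edgeR adjusted p = 0.756). Its call ended with DESeq2 size factors (edgeR adjusted p = 0.205).

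Of 18 glycolytic genes 7 rose and 0 fell, with a median of 1.26, which was 0.49 within GF mice. Under DESeq2 size factors 2 rose and the median was 0.63. When GF sham replicate 1 was left out as well, 10 rose and the median was 1.53. Of 21 genes of oxidative phosphorylation 0 were called and their median was 0.003. Ldha, which turns pyruvate into lactate, had 639.5, 854 and 1147 CPM after ICH, against 77.7, 288 and 380.0 CPM in sham (1.72 ± 0.23, edgeR adjusted p = 0.000289). Pkm, pyruvate kinase, had 1001, 1512 and 2226 CPM after ICH, against 49.9, 343 and 637 CPM in sham (2.41 ± 0.38, edgeR adjusted p = 0.00102). Neither overlapped, and Pkm kept its call with DESeq2 size factors, which ended those of Ldha, Eno1 and Aldoa (edgeR adjusted p = 0.218, 0.485 and 0.555). Aldoa, aldolase A, changed by 2.29 in SPF, 1.87 in ABX and 0.49 in GF mice, and Tpi1, Gapdh and Pgam1 were the other rises. Glycolytic genes have many processed copies, and reads of Gapdh in particular may be spread over them.

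Actin and cytoskeleton genes had 9 of 18 rising, with a median of 0.98, which was 0.15 within GF mice. Under DESeq2 size factors 3 rose and the median was 0.41. When GF sham replicate 1 was left out as well, 9 rose and the median was 1.22. Arpc1b, a subunit of the actin-branching Arp2/3 complex, had 1129, 1326 and 1806 CPM after ICH, against 181, 345 and 1023 CPM in sham (1.71 ± 0.24, edgeR adjusted p = 0.000387). Actb, beta-actin, had 15270, 21200 and 27190 CPM after ICH, against 7758, 9560 and 19490 CPM in sham (1.06 ± 0.16, edgeR adjusted p = 0.000714). Arpc1b was separate between the sides and Actb overlapped. Arpc1b changed by 2.41 in SPF, 2.04 in ABX and 0.66 in GF mice, and the interaction did not pass (edgeR adjusted p = 0.756). The others were Actg1, Tpm4, Capg, Vim, Pfn1, Cfl1 and Cotl1, of which Pfn1, Cfl1 and Cotl1 were near 0 within GF mice, at 0.08, 0.08 and 0.13. Calls of Arpc1b, Actb and Actg1 ended with DESeq2 size factors (edgeR adjusted p = 0.337, 0.767 and 0.719). Cytosolic ribosomal protein genes had 1 rise among 22, Rps2 (1.26 ± 0.28, edgeR adjusted p = 0.017), a call that ended without ABX sham replicate 1 (edgeR adjusted p = 0.053) or 2 (0.0529) and with DESeq2 size factors, and 13 rises without GF sham replicate 1. Of 20 proteasome genes 0 were called (median 0.26), and 1 was called without GF sham replicate 1.

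Homeostatic microglial genes held the most falls of all lists. Of 18 tested, 10 fell and 0 rose, 17 had negative values and the median was −1.11. Cst3 (ENSMUSG00000027447, chromosome 2, 148871722 to 148875692), the protease inhibitor cystatin C, had 8001, 10770 and 23820 CPM after ICH, against 29050, 35560 and 44220 CPM in sham (−1.59 ± 0.14, edgeR adjusted p = 3.68e-06). P2ry12 (ENSMUSG00000036353, chromosome 3, 59216272 to 59262871), the ADP receptor that guides microglial processes to injury, had 1289, 2589 and 3930 CPM after ICH, against 4577, 9226 and 12990 CPM in sham (−1.80 ± 0.21, edgeR adjusted p = 8.42e-05). The ICH libraries of both lay wholly below the shams. Siglech, a sialic acid-binding lectin, had 696, 1000 and 1839 CPM after ICH, against 1920, 2487 and 3716 CPM in sham (−1.33 ± 0.17, edgeR adjusted p = 0.000156). Gpr34, a lysophosphatidylserine receptor, had 566, 1130 and 1453 CPM after ICH, against 1576, 3520 and 4084 CPM in sham (−1.46 ± 0.19, edgeR adjusted p = 0.000238). These 2 genes did not overlap either. P2ry13, Tgfbr1, Slc2a5, Cx3cr1 and Golm1 fell with an overlap between the sides, by values from −1.60 (P2ry13) to −0.76 (Cx3cr1).

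Not every defining gene passed the test. Tmem119, a marker of microglia, had 499.9, 1387 and 4118 CPM after ICH, against 1000, 3509 and 9276 CPM in sham and missed the threshold (−1.16 ± 0.32, edgeR adjusted p = 0.0683), which it passed with DESeq2 (adjusted p = 0.0194) and limma voom (0.00709). Csf1r, the growth factor receptor on which microglia depend, had 762, 2154 and 3168 CPM after ICH, against 928, 1990 and 15840 CPM in sham (−0.33 ± 0.38, edgeR adjusted p = 0.843), with the highest value in GF sham replicate 1, without which the change was 0.02 (edgeR adjusted p = 0.993). None of 18 microglial transcription factors was called. Their median was −0.28, with −0.49 in SPF, 0.67 in ABX and −0.75 in GF mice. Mef2c, an identity factor, stood at −0.58 ± 0.16 (edgeR adjusted p = 0.0568, and 0.0333 with DESeq2). When GF sham replicate 1 was left out, 1 factor rose and 2 fell. Leaving out GF sham replicate 3 gave 2 falls and leaving out ABX sham replicate 1 gave 1 rise. At unadjusted p below 0.05, 2172 of all tested genes passed. Tgfbr1, the receptor kinase of the signal that maintains microglial identity, had 159, 249 and 306 CPM after ICH, against 246, 618 and 1244 CPM in sham (−1.5 ± 0.26, edgeR adjusted p = 0.00311), the only call among 15 genes of the TGF-beta list, whose median was −0.85 and of which 2 fell without GF sham replicate 1. With DESeq2 size factors 6 homeostatic genes fell, and the calls of Tgfbr1 and Cx3cr1 ended (edgeR adjusted p = 0.0631 and 0.176). When GF sham replicate 1 was left out as well, 10 homeostatic genes fell.

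Immediate early genes, which also rise when tissue is dissociated, had 0 rises and 2 falls among 18, with a median of −0.77. Within the conditions their median was −1.3 in SPF, 0.02 in ABX and −1 in GF mice. Btg2, an antiproliferative factor, had 89.9, 188 and 418 CPM after ICH, against 279.5, 691 and 1792 CPM in sham (−1.89 ± 0.33, edgeR adjusted p = 0.00331). Jun, a subunit of AP-1, had 160.3, 274 and 1063 CPM after ICH, against 187, 717 and 4423 CPM in sham (−1.43 ± 0.35, edgeR adjusted p = 0.0331), but its call ended in 11 of the 18 fits that left out 1 library, with edgeR adjusted p up to 0.0982 without SPF sham replicate 2. Both overlapped between the sides.

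The conditions were then taken singly, with 3 ICH and 3 sham libraries each. In SPF mice 31 genes rose and 8 fell (0.184% and 0.0476% of those tested), in ABX mice 47 and 12 (0.279% and 0.0714%) and in GF mice 9 and 0 (0.0535% and 0%). Of the 261 genes that rose in the pooled fit, 31 were called in SPF, 40 in ABX and 9 in GF mice, and 7 within all 3. Of the 127 that fell, 8 were called in SPF, 12 in ABX and 0 in GF mice, while 328 of the 388 pooled calls were called in no condition alone. No gene passed the test for a response that differs between conditions, 0% of those tested (edgeR quasi-likelihood F test with 2 degrees of freedom, lowest adjusted p = 0.268). At unadjusted p below 0.05 there were 1040, 6.18% of all genes and 10.1% of the 388 pooled calls. DESeq2 called 200 genes and limma voom 4. Without GF sham replicate 3, 631 genes had a differing response and 1275 rose and 499 fell in GF mice. Within-condition counts moved by more than 1.5 times with many other single libraries, from 14 to 136 rises in SPF mice and from 12 to 149 in ABX mice, with the highest value of each without GF sham replicate 1. The common biological coefficient of variation was 1.5. With this spread and 3 libraries per group, the lack of calls does not show that the conditions respond alike.

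Day 3 was last set against day 7 after ICH, with 9 libraries a side and no sham. The libraries differed in quality too, with 14078 to 16931 detected genes and 0.878% to 2.19% of counts on mitochondrial genes at day 3, against 9185 to 16206 genes and 0.907% to 6.45% at day 7. At day 7 the 3 GF and 2 of the 3 ABX libraries had 9185 to 11043 genes, and the part of this in the result was not tested. Of 15829 tested genes 99 were higher at day 3 (0.625%) and 191 lower (1.21%). CPM in this comparison are scaled over the 18 ICH libraries. Of the 388 genes of the day 3 response 373 were tested. Among risen genes 22 were higher at day 3 than at day 7 and 7 lower, and among fallen genes 0 were higher and 39 lower. The same 9 ICH day 3 libraries enter both comparisons, so these splits are in part built in. Hmox1 had 813, 1240 and 1870 CPM at day 3, against 0.653, 99.0 and 470.0 CPM at day 7 (3.66 ± 0.88, edgeR adjusted p = 0.0423). Aldoa had 1190, 1510 and 1820 CPM at day 3, against 40.3, 381 and 963 CPM at day 7 (2.25 ± 0.41, edgeR adjusted p = 0.00917). Neither gene overlapped between the days. Eno1, Actb, Tuba1b, Tk1 and Aurka were also higher at day 3, by 1.69 ± 0.32, 1.45 ± 0.29, 1.06 ± 0.21, 5.14 ± 1.09 and 6.38 ± 1.35. Spp1 had 1480, 3160 and 6250 CPM at day 3, against 6980, 19900 and 29200 CPM at day 7 (−2.46 ± 0.29, edgeR adjusted p = 0.000441). B2m had 1500, 2300 and 3400 CPM at day 3, against 4380, 12500 and 19300 CPM at day 7 (−2.11 ± 0.25, edgeR adjusted p = 0.000441), and like Spp1 had all day 3 libraries below all day 7 libraries. Ccl6, Selenop, Ctss and Lyz2 were also lower at day 3, with −2.18 ± 0.27, −1.79 ± 0.23, −1.37 ± 0.18 and −1.5 ± 0.20. P2ry12 had 1140, 2210 and 3440 CPM at day 3, against 3320, 8180 and 18300 CPM at day 7 (−1.84 ± 0.28, edgeR adjusted p = 0.00245), with an overlap.

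These day 3 against day 7 calls did not hold up to the choice of mice. Without GF mice 0 genes were higher and 0 lower, without ABX mice 0 and 1, without SPF mice 2228 and 870, and without libraries under 12000 detected genes 3 and 5. Leaving out single libraries gave 3 genes higher without GF ICH day 3 replicate 3 and 172 without SPF ICH day 3 replicate 2, with 46 and 240 lower without GF ICH day 3 replicate 3 and SPF ICH day 7 replicate 2. In all, 13 to 15 of the 18 libraries moved each count by more than 1.5 times. Without GF mice the values were 2.97 for Hmox1 and −1.64 for B2m (edgeR adjusted p = 0.207 and 0.0779).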

How the data were processed

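The authors deposited raw counts of 27 libraries by gene, whole numbers without normalization, judged by the file's values. Tools named in the submitters' processing notes are StringTie 1.3.4d, HISAT2 2.0.4, cutadapt 1.9 and edgeR, with mm10. The annotation release, strand setting and counting of mates are not given in the sources used here. GENCODE M21 (GRCm38) gave symbols to 52073 of 56691 identifiers, and the other 4618 held 1.27% of counts. The 9 ICH day 3 and 9 sham libraries were fitted in edgeR 4.0.16 (R 4.3.3) with condition and injury as additive terms, TMM scaling, the filterByExpr rule over 6 groups, which kept 16816 genes with 99.9% of counts, and robust quasi-likelihood F tests. P-values were adjusted over all tested genes by the Benjamini-Hochberg method at 0.05. Fold changes are log2 of ICH day 3 over sham with their SE from the F statistic, and CPM are TMM scaled. Within-condition values and the interaction come from a fit of 6 group means, and day 3 against day 7 from an additive fit of the 18 ICH libraries. The fits were tested on simulated data, in which each change was common to all conditions.

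The gene lists, the naming rule and the set of libraries were chosen with earlier results of these data known. Named are the 12 largest rises and falls past the threshold that averaged at least 4 in log2 CPM and whose sides were apart, up to 3 genes with the smallest adjusted p of each list, up to 6 genes in each direction of day 3 against day 7, up to 6 with a differing response between conditions (none passed) and 15 fixed genes. Predicted genes and pseudogenes were left out of the largest rises and falls. Other list members with values, and the 2 ferritin copies, were named after their values were seen. Some called genes are not reported here. Lists were described by counts and medians without a set test. Alternatives were DESeq2 1.42.0, limma 3.58.1 voom (with sample quality weights), size factors of DESeq2 put into edgeR, no filter, a mean CPM of at least 100, a replicate block, leaving out libraries, low libraries (under 12000 detected genes) or conditions, all 27 libraries, no condition term and offsets for GC content. An adjusted p that DESeq2 did not give stayed missing. Depth is the total count per library, and the spread between libraries, not counting error, sets the precision.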

Additional observations from a re-analysis of the deposited data

How the results depend on the processing

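Directions held better than counts. Of the 78 named genes called at day 3, none changed sign under any alternative, and the calls not kept numbered 9 with DESeq2 (among genes it gave an adjusted p), 1 with limma voom, 33 with DESeq2 size factors, 1 when GF sham replicate 1 was left out as well, 48 without SPF mice, 52 without ABX mice, 5 without GF mice, 13 with all 27 libraries and 5 with GC offsets. Of all 388 calls, 226 (151 rises and 75 falls) held whichever of the 18 libraries was left out. The cause of these changes was not tested, except that fits without a condition hold 12 libraries.

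The pooled counts of rises and falls, 261 and 127, were 608 and 540 with DESeq2, 762 and 353 with limma voom, 139 and 45 with DESeq2 size factors, 452 and 323 with these and without GF sham replicate 1, 517 and 328 without libraries under 12000 detected genes, 39 and 12 without SPF, 32 and 7 without ABX and 422 and 251 without GF mice. Genes of mean CPM of at least 100 alone, 1555 of them, gave 171 rises, and all 27 libraries 47 falls. Leaving out single libraries gave 180 to 478 rises and 80 to 277 falls. Genes with a differing response, 0, were 200 with DESeq2, 4 with limma voom and 0 to 631 without single libraries. In SPF mice rises and falls, 31 and 8, were 526 and 502 with DESeq2, 233 and 128 with limma voom, 2 and 0 with size factors, 87 and 53 at CPM of at least 100, 202 and 57 without low libraries, and 14 to 136 and 1 to 42 without single libraries. In ABX mice, 47 and 12, they were 482 and 607, 447 and 275, 5 and 0, 110 and 61, 208 and 59, and 12 to 149 and 2 to 38. In GF mice, 9 and 0, DESeq2 gave 405 and 1407, limma voom 0 rises, size factors 1, CPM of at least 100 24 and 6, the fit without low libraries 1 rise, and single libraries 4 to 1275 and 0 to 499. Day 3 over day 7, 99 higher and 191 lower, gave 3832 and 713 with DESeq2, 124 lower with limma voom, 30 and 69 with size factors, 19 and 74 without a filter, 3 and 5 without low libraries, 2228 and 870 without SPF, 0 and 1 without ABX, 0 and 0 without GF mice, and 3 to 172 and 46 to 240 without single libraries.

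Groups use the same replicate numbers without any label that pairs libraries, and same-numbered ICH and sham libraries did not deviate together (correlations of −0.0493 to 0.0657 over 9 pairs, 0 above 0.1). A replicate block gave 272 rises and 115 falls, 27 rises in ABX mice, and 27 higher and 103 lower genes between the days. A measure of GC content, GC-rich over GC-poor genes in log2 units, was −0.449 to 0.894 after ICH and −1.13 to 0.562 in sham, and GC offsets gave 269 rises and 122 falls.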

Other observations

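Single called genes outside the lists are given here. They were chosen after their values were seen, and no group of genes is described by them. Il2rg, the common gamma chain of cytokine receptors, had 61.1, 82.96 and 112 CPM after ICH, against 1.804, 13.1 and 19.04 CPM in sham (2.94 ± 0.46, edgeR adjusted p = 0.00107). Csf2ra, the receptor chain for the growth factor GM-CSF, rose by 3.00 ± 0.68, Cybb, the catalytic subunit of the phagocyte oxidase, by 3.98 ± 0.69, and Tlr2, a sensor of bacterial lipopeptides, by 1.49 ± 0.37 (edgeR adjusted p = 0.0208, 0.00284 and 0.0371). Tspo, the mitochondrial protein used as an imaging target for activated microglia, had 361, 567 and 616 CPM after ICH, against 38.95, 106 and 429 CPM in sham (1.85 ± 0.30, edgeR adjusted p = 0.00132), and changed by 2.60 in SPF, 2.15 in ABX and 0.79 in GF mice. The amino acid synthesis genes Asns and Psat1 rose by 4.77 ± 1.04 and 2.91 ± 0.63, and the cell cycle inhibitor Cdkn1a by 3.10 ± 0.61.

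Some single genes fell. Rgs2, which shortens G protein signals, had 394, 689 and 995 CPM after ICH, against 998, 1766 and 2563 CPM in sham (−1.26 ± 0.19, edgeR adjusted p = 0.000939), and Rgs10 and Rgs1 fell by 1.17 ± 0.17 and 1.97 ± 0.42 log2 units. Nr3c1, the glucocorticoid receptor, fell by 1.40 ± 0.26, and Tsc22d3, a leucine zipper protein, and the kinase gene Sgk1 fell by 2.07 ± 0.31 and 1.09 ± 0.22 (edgeR adjusted p = 0.00492, 0.000668 and 0.00898). Cd14, a coreceptor for lipopolysaccharide, and Tmem173, an adaptor of DNA sensing, fell by 1.10 ± 0.18 and 1.05 ± 0.21 (edgeR adjusted p = 0.00165 and 0.00857). In 231 tested genes the libraries of 2 conditions were separated in opposite directions, and 0 of them were called in the pooled fit.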
